A study of Homo sapiens with 6 samples.

Results

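The genes described here are 10 genes of the HSP90 chaperone system: the 4 HSP90 paralogs *HSP90AA1*, *HSP90AB1*, *HSP90B1* and *TRAP1*, the 5 cochaperones *AHSA1*, *PTGES3*, *STIP1*, *CDC37* and *FKBP4*, and the transcription factor *HSF1*. They were found by symbol among the 58735 genes of the table, and each symbol matched 1 row. The genes were chosen by name with their FPKM in these 6 libraries already known. Their levels and fold changes are therefore given as a description, with no test.

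The RNA came from TPC-1, a human papillary thyroid carcinoma cell line, in 3 libraries of the uninfected wild strain and 3 libraries of *RRM2*-OE-TPC-1. The latter cells were infected with an LV18 lentivirus that carries full-length *RRM2*, the small subunit of ribonucleotide reductase, behind a CMV promoter, and were selected with puromycin. No library of an empty vector was analysed here, so the effects of infection, selection and *RRM2* cannot be told apart. The titles name all 3 overexpression libraries for *RRM2*, although the genotype field of replicates 2 and 3 reads RRM3 and RRM4.

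HSP90 proteins are ATP-driven chaperones that hold client proteins, many of them kinases and steroid receptors, close to their folded state. HSP90α (*HSP90AA1*) and HSP90β (*HSP90AB1*) work in the cytosol, GRP94 (*HSP90B1*) in the endoplasmic reticulum (ER) and TRAP1 in mitochondria. Cochaperones deliver clients and set the pace of the ATPase cycle, and HSF1 is the factor that drives transcription of cytosolic chaperone genes under proteotoxic stress.

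The libraries held 14317091 to 17084067 reads on genes, and mitochondrial genes took 4.29% to 5.89% of them. *RRM2* itself was at 8.92 ± 0.346 FPKM (SD, n = 3) in TPC-1 and 48.4 ± 1.78 FPKM in *RRM2*-OE-TPC-1. Its log2 fold change was 2.43 (SE 0.0442; limma adjusted p = 1.11e-08). Of 10 thyroid follicular markers, the transcription factor *PAX8* was at 69.3 FPKM in TPC-1 and 58.5 FPKM in *RRM2*-OE-TPC-1. *FOXE1* was at 4.30 and 3.19 FPKM, and *HHEX*, higher in *RRM2*-OE-TPC-1, at 2.47 and 4.61 FPKM. *TG*, *TSHR*, *SLC5A5*, *DIO1* and *DIO2* had group means of at most 0.124 FPKM and *NKX2-1* was at 0, so these defining thyroid genes were absent or nearly so. The summed FPKM of 9 leukocyte, endothelial and fibroblast markers ran from 1.59 to 1.91 in TPC-1 and from 0.507 to 0.675 in *RRM2*-OE-TPC-1, and *CD3E*, *COL3A1* and *DCN* were at 0 in every library. Such low sums do not show that cells of these types were present. Because these are bulk cultures, fewer cells that express a gene and less RNA per cell cannot be told apart.

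All 10 HSP90 genes had a higher mean in *RRM2*-OE-TPC-1, and in none of them did the libraries of the groups overlap. The mean FPKM was 4.96 times as high for *HSP90AA1*, at least 2.10 times as high for *HSP90AB1*, *AHSA1* and *FKBP4*, and 1.11 times as high for *HSF1*. The median log2 fold change of the 10 genes was 0.75, beside a median of 0.01 over all 13621 genes tested, whose middle 50% ran from −0.37 to 0.36. By adjusted p alone (0.05 or less), 67.6% of the tested genes were called, 34.9% as higher and 32.7% as lower, and all 10 HSP90 genes were among the higher ones. With a log2 fold change of at least 1 in addition, 4.48% of the tested genes were called higher and 6.97% lower, and *HSP90AA1*, *HSP90AB1*, *AHSA1* and *FKBP4* were called higher. In 37.3% of the tested genes all *RRM2*-OE-TPC-1 libraries lay above all TPC-1 libraries, and in 35% they all lay below. Since the contrast was in view when the genes were chosen, nothing is read from these counts.

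**Figure D1:**
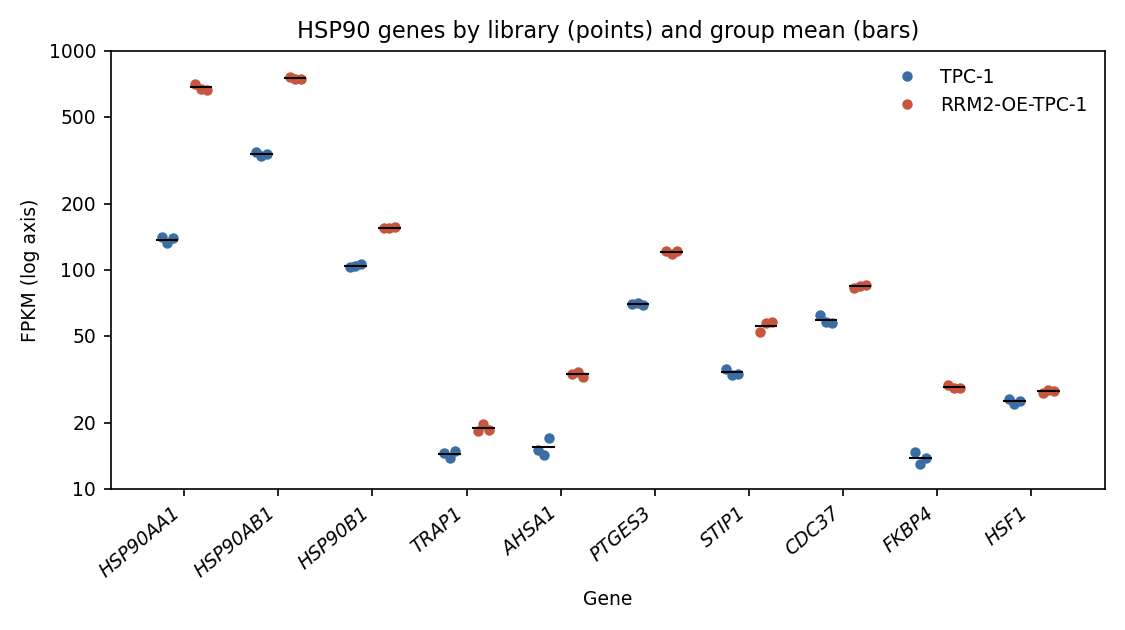
FPKM (vertical log axis) of the 10 HSP90 genes (horizontal axis) in the 3 TPC-1 libraries (blue points) and the 3 *RRM2*-OE-TPC-1 libraries (red points), with horizontal bars for the group means. The red points lie above the blue ones for every gene, with the widest gap at *HSP90AA1* (137 and 681 FPKM on average) and the narrowest at *HSF1* (25.1 and 27.8 FPKM).

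*HSP90AA1* (ENSG00000080824, minus strand, chr14:102080738-102139699 in GRCh38) encodes the stress-inducible cytosolic HSP90α. Its level was 141, 132 and 139 FPKM in the TPC-1 libraries and 707, 670.5 and 664 FPKM in the *RRM2*-OE-TPC-1 libraries. The lowest overexpression library thus lay 4.71 times above the highest TPC-1 library. The group means were 137 ± 4.75 and 681 ± 23.1 FPKM, a log2 fold change of 2.31 (SE 0.0427), and 99.6% of all tested genes had a lower log2 fold change. By mean FPKM the gene stood at place 186 of all genes in TPC-1 and at place 31 in *RRM2*-OE-TPC-1. It took 0.0752% of all reads on genes in TPC-1 against 0.358% in *RRM2*-OE-TPC-1, with 11625 to 60275 reads a library. Its exons overlap those of *WDR20* on the other strand by 197 bases, and *WDR20* was at 4.17 FPKM in TPC-1 and 4.66 FPKM in *RRM2*-OE-TPC-1.

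*HSP90AB1* (ENSG00000096384, plus strand, chr6:44246166-44253888) encodes the constitutive cytosolic HSP90β. By FPKM, which uses the gene length of the table, it was the most abundant of the 10 genes in both groups, at 345, 330.2 and 339 FPKM in TPC-1 and 762, 746 and 743 FPKM in *RRM2*-OE-TPC-1. The values within a group differed by a few percent, and the groups were far apart. Means were 338 ± 7.45 and 751 ± 10.3 FPKM, and the log2 fold change was 1.15 (SE 0.0382).

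*HSP90B1* (ENSG00000166598, plus strand, chr12:103930107-103953645) encodes the ER paralog GRP94. TPC-1 libraries held it at 103, 104 and 106 FPKM and *RRM2*-OE-TPC-1 libraries at 155, 155 and 158 FPKM. The libraries of a group nearly coincided, and the coefficient of variation in *RRM2*-OE-TPC-1, 0.905%, was the lowest of the 10 genes in either group. The log2 fold change was 0.58 (SE 0.0297), smaller than for either cytosolic paralog.

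*TRAP1* (ENSG00000126602, minus strand, chr16:3651639-3717597), the mitochondrial paralog, was the least abundant of the 4. Its level was 14.6, 13.8 and 14.9 FPKM in TPC-1 and 18.3, 19.8 and 18.6 FPKM in *RRM2*-OE-TPC-1. The groups did not overlap, but the gap was narrow, the lowest overexpression library lying 1.23 times above the highest TPC-1 library. The log2 fold change was 0.39 (SE 0.0471). Its exons share 1531 bases with *DNASE1* on the other strand, a gene at 0.919 FPKM in TPC-1 and 1.15 FPKM in *RRM2*-OE-TPC-1.

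The 4 paralogs together summed to 594 ± 12.7 FPKM in TPC-1 and 1606 ± 31.96 FPKM in *RRM2*-OE-TPC-1, 2.70 times as much. The make-up of this sum differed between the groups. *HSP90AA1* was 23.3%, 22.7% and 23.2% of it in the TPC-1 libraries and 43.0%, 42.1% and 42.0% in the *RRM2*-OE-TPC-1 libraries, a difference of 19.3 percentage points. All 3 overexpression libraries stood well above all 3 TPC-1 libraries. The mean share of *HSP90AB1* was 56.9% in TPC-1 against 46.7% in *RRM2*-OE-TPC-1, that of *HSP90B1* 17.6% and 9.71%, and that of *TRAP1* 2.43% and 1.18%. The ratio of *HSP90AA1* to *HSP90AB1* was 0.409, 0.399 and 0.410 in TPC-1 and 0.927, 0.898 and 0.894 in *RRM2*-OE-TPC-1, so by FPKM the β paralog stayed ahead in every library. FPKM divides by the gene length of the table, which counts all annotated exons (5248 bases for *HSP90AA1* and 2980 for *HSP90AB1*). With the length of the principal transcript instead, an alternative chosen after seeing the data, the mean ratio was 0.566 in TPC-1 against 1.26 in *RRM2*-OE-TPC-1, and in reads with no division by length it was 0.715 and 1.60. Which paralog was ahead in *RRM2*-OE-TPC-1 therefore depended on the length used, whereas the 2.23-fold difference of the ratio between the groups does not depend on length.

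**Figure D2:**
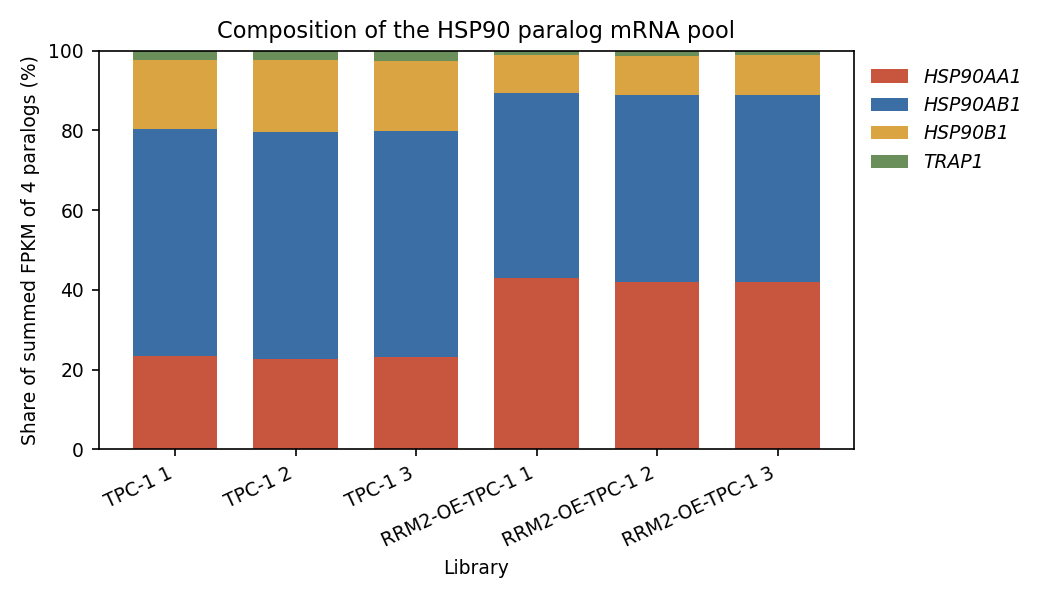
Share (percent, vertical axis) of each HSP90 paralog in the summed FPKM of the 4 paralogs, stacked for each of the 6 libraries (horizontal axis). The red segment of *HSP90AA1* takes 22.7% to 23.3% of the bar in TPC-1 and 42.0% to 43.0% in *RRM2*-OE-TPC-1.

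Promoter sequence is shown for 3 of the paralogs, since the cytosolic pair are textbook targets of HSF1 and *HSP90B1* of the ER stress response. A heat shock element (HSE), to which HSF1 binds, consists of the units GAA and TTC in turn, each separated from the next by NN. An ER stress response element (ERSE) consists of CCAAT and CCACG with 9 bases of any kind (N) between them. Windows from 250 bases before to 50 after each RefSeq transcription start in GRCh38.p14 were searched on both strands. Of 35116 such windows, 0.49% held an HSE of 3 units, 13.5% an HSE of 2 units and 0.0769% an ERSE, and each 3-unit match contains overlapping 2-unit matches. For the HSP90 genes, 13 windows of 8 genes were searched. No window of *FKBP4* or *HSF1* was used here.

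Matches to the 3-unit HSE were found at *HSP90AA1*, from −88 to −76 relative to the start at position 102087044, and at *HSP90AB1*, from −165 to −153 and from −112 to −100 relative to the start at position 44247943. *HSP90B1* had no HSE match and 2 ERSE matches, from −194 to −176 and from −89 to −71 relative to the start at position 103930410. The 30 bases around each match are given 5′ to 3′ on the strand of the gene, with the match in capitals. The first is on the minus strand at chr14:102087111-102087140, the following 2 on the plus strand at chr6:44247770-44247799 and chr6:44247823-44247852, and the last 2 on the plus strand at chr12:103930211-103930240 and chr12:103930316-103930345.
HSP90AA1 HSE: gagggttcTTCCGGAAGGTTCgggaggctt
HSP90AB1 distal HSE: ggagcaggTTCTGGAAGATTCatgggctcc
HSP90AB1 proximal HSE: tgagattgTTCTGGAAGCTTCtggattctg
HSP90B1 distal ERSE: cctgaCCAATCGGAAGGAGCCACGcttcgg
HSP90B1 proximal ERSE: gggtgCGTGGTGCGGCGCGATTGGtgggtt

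The 3 HSE matches share the same order of units, TTC first, and the proximal ERSE match at *HSP90B1* reads on the opposite strand, so CGTGG comes first. In the GENCODE 29 annotation the *HSP90AB1* matches lie outside exons, whereas those at *HSP90AA1* and *HSP90B1* lie in untranslated exon sequence of other annotated transcripts. A separate 2-unit HSE lay from −68 to −61 at *HSP90AA1*. *STIP1* had a 2-unit HSE from +14 to +21 of its second start, and the windows of *TRAP1*, *AHSA1*, *PTGES3* and *CDC37* held none of these motifs. A match is a run of letters in a window and no binding was measured.

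**Figure D3:**
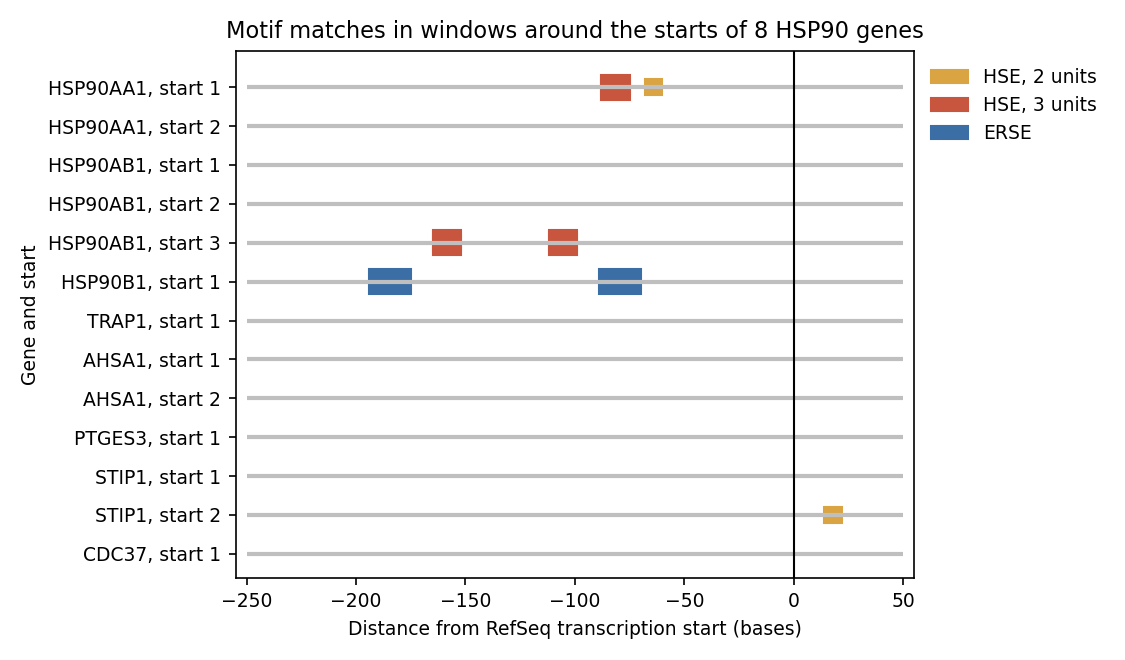
Matches to the heat shock element with 3 units (red) or 2 units (yellow) and to the ER stress response element (blue) in 13 windows around the RefSeq starts of 8 HSP90 genes; the horizontal axis is the distance from the start in bases and each row is 1 start. Red boxes lie at 1 start of *HSP90AA1* and 1 start of *HSP90AB1*, and blue boxes only at *HSP90B1* among these 8 genes.

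The 5 cochaperones summed to 192 ± 4.09 FPKM in TPC-1 and 323 ± 3.45 FPKM in *RRM2*-OE-TPC-1, 1.68 times as much, and their median log2 fold change was 0.79. *AHSA1* (ENSG00000100591, plus strand, chr14:77457870-77469474), which encodes the activator of the HSP90 ATPase, had the largest log2 fold change of the 5, although without TPC-1 replicate 1 that of *FKBP4* was larger (1.11 against 1.09). Its level was 15.0, 14.3 and 17.0 FPKM in TPC-1 and 33.5, 34.1 and 32.3 FPKM in *RRM2*-OE-TPC-1. The TPC-1 libraries were the more scattered here, with a coefficient of variation of 8.99%, the highest of the 10 genes in either group. The log2 fold change was 1.11 (SE 0.0624). The exons overlap those of *VIPAS39* on the other strand by 83 bases, a gene at 5.46 and 5.42 FPKM.

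*FKBP4* (ENSG00000004478, plus strand, chr12:2794953-2805423) encodes the immunophilin FKBP52, which joins HSP90 complexes with steroid receptors. It was at 14.7, 12.9 and 13.9 FPKM in TPC-1 and 29.7, 28.8 and 28.8 FPKM in *RRM2*-OE-TPC-1. Every overexpression library stood far above every TPC-1 library. The log2 fold change was 1.07 (SE 0.0498).

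*PTGES3* (ENSG00000110958, minus strand, chr12:56663341-56688408) encodes p23, which stabilises the closed, ATP-bound form of HSP90. It was the most abundant cochaperone, at 69.7, 70.5 and 69.2 FPKM in TPC-1 and 121, 118 and 122 FPKM in *RRM2*-OE-TPC-1. The libraries of a group lay close together and the groups well apart, with a log2 fold change of 0.79 (SE 0.0295).

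*STIP1* (ENSG00000168439, plus strand, chr11:64185272-64204543) encodes HOP, the adaptor that passes clients from HSP70 to HSP90. TPC-1 libraries were at 35.3, 33.0 and 33.6 FPKM and *RRM2*-OE-TPC-1 libraries at 51.8, 57.0 and 57.8 FPKM. Replicate 1 of *RRM2*-OE-TPC-1 was the lowest of its group and still above all of TPC-1. The log2 fold change was 0.71 (SE 0.0494).

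*CDC37* (ENSG00000105401, minus strand, chr19:10391134-10420121) encodes the cochaperone that brings kinases to HSP90. Its values were 62.0, 58.0 and 57.1 FPKM in TPC-1 and 82.9, 84.5 and 85.6 FPKM in *RRM2*-OE-TPC-1. The groups were separate, with the smallest log2 fold change of the 5 cochaperones, 0.51 (SE 0.0387).

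Each cochaperone was higher in *RRM2*-OE-TPC-1 but by less than the sum of the cytosolic paralogs, which depends on the gene lengths used. *HSP90AB1* alone was 2.22 times as high in *RRM2*-OE-TPC-1. *AHSA1* (2.16 times) and *FKBP4* (2.10 times) were near it, and the other cochaperones were 1.43 to 1.73 times as high. Per 100 FPKM of *HSP90AA1* plus *HSP90AB1*, *CDC37* was at 12.4 ± 0.420 FPKM in TPC-1 and 5.90 ± 0.225 FPKM in *RRM2*-OE-TPC-1. On the same scale *PTGES3* was at 14.7 and 8.41, and *STIP1* at 7.15 and 3.88. The ratios of *AHSA1* (3.25 and 2.33) and *FKBP4* (2.91 and 2.03) differed least, being 0.716 and 0.698 times as high in *RRM2*-OE-TPC-1. For all 5 genes the ratio was lower in every overexpression library than in any TPC-1 library.

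*HSF1* (ENSG00000185122, plus strand, chr8:144291591-144314722) had the smallest difference of the 10 genes. It was at 25.7, 24.5 and 25.2 FPKM in TPC-1 and 27.4, 28.3 and 27.8 FPKM in *RRM2*-OE-TPC-1. The groups did not overlap, but the log2 fold change was 0.15 (SE 0.0340) and 60.0% of all tested genes had a lower one. When FPKM were rescaled to library totals it was 0.09. Its exons overlap those of *DGAT1* on the other strand by 139 bases, and *DGAT1* was at 14.2 FPKM in TPC-1 and 9.97 FPKM in *RRM2*-OE-TPC-1. mRNA levels give no measure of the trimerisation and phosphorylation through which HSF1 is known to be activated.

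**Figure D4:**
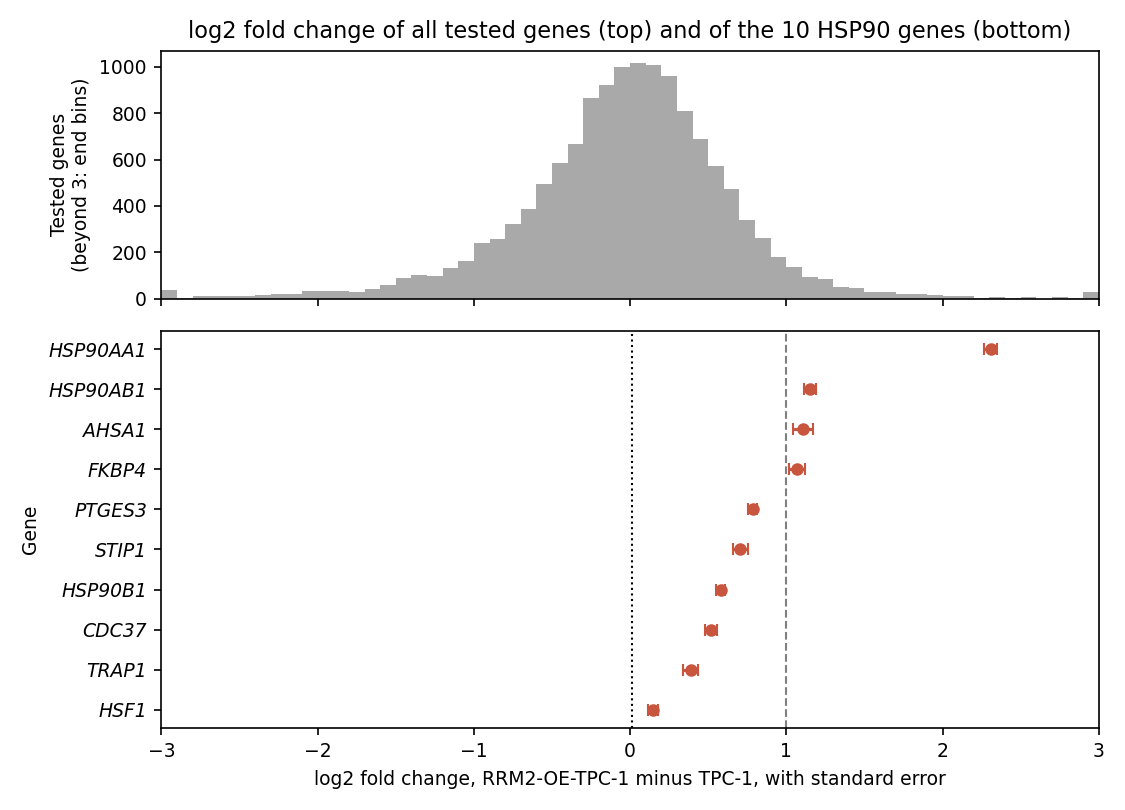
Number of tested genes by log2 fold change, *RRM2*-OE-TPC-1 minus TPC-1 (top; genes beyond 3 in either direction are put in the end bins), and the log2 fold change of each HSP90 gene with its standard error (bottom). The dotted line is the median of all tested genes (0.01) and the dashed line a log2 fold change of 1; *HSP90AA1* lies at 2.31, 3 others lie between 1.07 and 1.15, and *HSF1* lies at 0.15.

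In TPC-1 the order of levels by FPKM was *HSP90AB1*, *HSP90AA1*, *HSP90B1*, *PTGES3*, *CDC37*, *STIP1*, *HSF1*, *AHSA1*, *TRAP1* and *FKBP4*, and the ranges of *AHSA1* and *TRAP1* and those of *TRAP1* and *FKBP4* overlapped. In *RRM2*-OE-TPC-1 the first 6 places were the same. *AHSA1* and *FKBP4* then stood ahead of *HSF1* and *TRAP1*, and no neighbours overlapped. Together the 10 genes took 0.326% of reads on genes in TPC-1 against 0.799% in *RRM2*-OE-TPC-1.

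Across the 6 libraries the protein-coding genes most like *HSP90AA1* in log2 FPKM were *GINS2*, a subunit of the replicative helicase complex (Pearson's r = 0.99996), *HSP90AB1* (0.99995) and *TUBB4B*, a beta tubulin (0.99992). The same genes were the most like *HSP90AB1*. The points share their split into 2 groups, and 1010 of 11451 protein-coding genes had an r above 0.99 with *HSP90AA1*. *TUBB4B* had a log2 fold change of 2.15 and *GINS2* of 1.71.

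Reads of processed pseudogenes can come from their parent genes. Of 26 pseudogenes and close relatives of these genes looked for (among them the protein-coding *PTGES3L*), 21 were in the table and 3 passed the filter. *HSP90AA2P* was at 1.16 FPKM in TPC-1 and 4.99 FPKM in *RRM2*-OE-TPC-1, with a log2 fold change of 2.03 near that of its parent. *HSP90AB3P* was at 0.504 and 1.09 FPKM and *PTGES3P1* at 4.52 and 6.26 FPKM. Of these 3 genes 2 were called higher, whereas *PTGES3P1* did not pass the adjusted p threshold. The 21 genes summed to 6.27 to 7.54 FPKM in TPC-1 and 11.8 to 14.5 FPKM in *RRM2*-OE-TPC-1, small beside the parents. How reads were divided among them was not tested.

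Other genes of the pathway were taken from lists, each compared through limma on log2 FPKM over all tested genes. Among 33 further HSP90 cochaperones 30 were tested, of which 16 rose, 6 fell and 8 did not pass, beside 34.9% called higher and 32.7% called lower over all tested genes. The median log2 fold change was 0.26, beside 0.01 for all tested genes. *CACYBP*, the calcyclin-binding protein, rose from 18.4 ± 0.695 to 38.7 ± 1.71 FPKM (log2 fold change 1.07, SE 0.0454, adjusted p = 5.35e-07). *TOMM34*, a carrier of mitochondrial precursors, rose from 23.5 to 41.9 FPKM (adjusted p = 5.05e-06), and *NUDC*, a dynein-associated cochaperone, from 32.8 to 58.0 FPKM (adjusted p = 9.32e-07). Further genes of the list that were chosen by name rose by less. *PPID* (cyclophilin 40) rose by 0.71 on the log2 scale (adjusted p = 1.41e-05), *FKBP5* (FKBP51) by 0.51 (adjusted p = 9.41e-05), the phosphatase *PPP5C* by 0.50 (adjusted p = 2.71e-05) and the ubiquitin ligase *STUB1* (CHIP) by 0.28 (adjusted p = 0.00124). *CHORDC1* rose by 0.71 (adjusted p = 7.96e-06) and *SUGT1*, a partner of NLR proteins, by 0.48 (adjusted p = 8.86e-04).

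Genes of the cochaperone list also moved the other way. *AHSA2P*, annotated as a transcribed pseudogene related to *AHSA1*, was at 9.82, 11.1 and 10.1 FPKM in TPC-1 and 4.84, 4.97 and 4.86 FPKM in *RRM2*-OE-TPC-1. It fell in every library of the group, opposite to *AHSA1*, with a log2 fold change of −1.06 (SE 0.0580, adjusted p = 1.79e-06). Its exons share 3263 bases with *USP34* on the other strand, which was at 14.9 FPKM in TPC-1 and 9.91 FPKM in *RRM2*-OE-TPC-1, and the strand setting of the counting is not given in the sources used here, so reads of these genes may be mixed. *FKBP8*, a membrane-bound immunophilin of mitochondria, fell from 103 ± 4.71 to 68.6 ± 3.77 FPKM (log2 fold change −0.59, adjusted p = 2.01e-05). *PIH1D1*, a subunit of the R2TP complex, fell from 17.4 to 13.7 FPKM (log2 fold change −0.35, adjusted p = 0.00185).

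Of 19 heat shock genes 17 were tested, and 15 rose, 1 fell and 1 did not pass, beside 34.9% of all tested genes called higher. *CACYBP* and *CHORDC1* are in this list too. Their median log2 fold change was 0.71, and 7 rose by a log2 fold change of at least 1. *HSPA8*, the constitutive HSC70, was at 142, 140.2 and 139 FPKM in TPC-1 and 418, 407 and 409 FPKM in *RRM2*-OE-TPC-1. By FPKM it was about as abundant as *HSP90AA1* in TPC-1, and it rose by 1.55 on the log2 scale (SE 0.0322, adjusted p = 2.17e-08). The HSP110 gene *HSPH1* rose from 9.56 to 26.1 FPKM (adjusted p = 8.00e-08). The mitochondrial chaperonin genes *HSPD1* (HSP60) and *HSPE1* (HSP10), which share 281 exon bases on opposite strands, rose by 1.16 (adjusted p = 9.91e-08) and by 1.58 (adjusted p = 3.39e-07). *HSPE1* also shares 192 exon bases on the same strand with *HSPE1-MOB4*, which was at 0 FPKM in TPC-1 and 0.0219 FPKM in *RRM2*-OE-TPC-1.

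By FPKM the inducible HSP70 genes were low, but these values are uncertain. *HSPA1B* rose from 2.05 ± 0.0757 to 5.79 ± 0.138 FPKM (log2 fold change 1.45, adjusted p = 7.09e-07), while its near-identical copy *HSPA1A* was at 0.171 and 0.417 FPKM and was not tested. Reads of this pair can be split between the copies, and how reads that fit both were counted is not given in the sources used here. *HSPA1B* also shares 920 exon bases on the same strand with *AL671762.1*, a gene at 0 FPKM. Both values may therefore be too low, and whether the mRNA of the pair was low was not tested. *HSPB1* (HSP27), the most abundant member of the list in TPC-1, was at 201 FPKM in both groups, with overlapping libraries (log2 fold change 0.00, SE 0.0382, adjusted p = 0.992). *HSPB8* was the gene that fell, from 21.3 to 19.04 FPKM (log2 fold change −0.16, adjusted p = 0.0303), and its call was lost, with adjusted p up to 0.103, without TPC-1 replicate 1, without *RRM2*-OE-TPC-1 replicate 2 or 3 and with no filter on low values. Of the other HSF genes, *HSF2* was at 7.75 and 7.32 FPKM (adjusted p = 0.399, and 0.0426 without TPC-1 replicate 2). *HSF4* fell from 2.65 to 1.62 FPKM (adjusted p = 0.0046), and *HSBP1*, a binding protein of HSF1, rose from 10.1 to 11.9 FPKM (adjusted p = 0.00322).

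**Figure D5:**
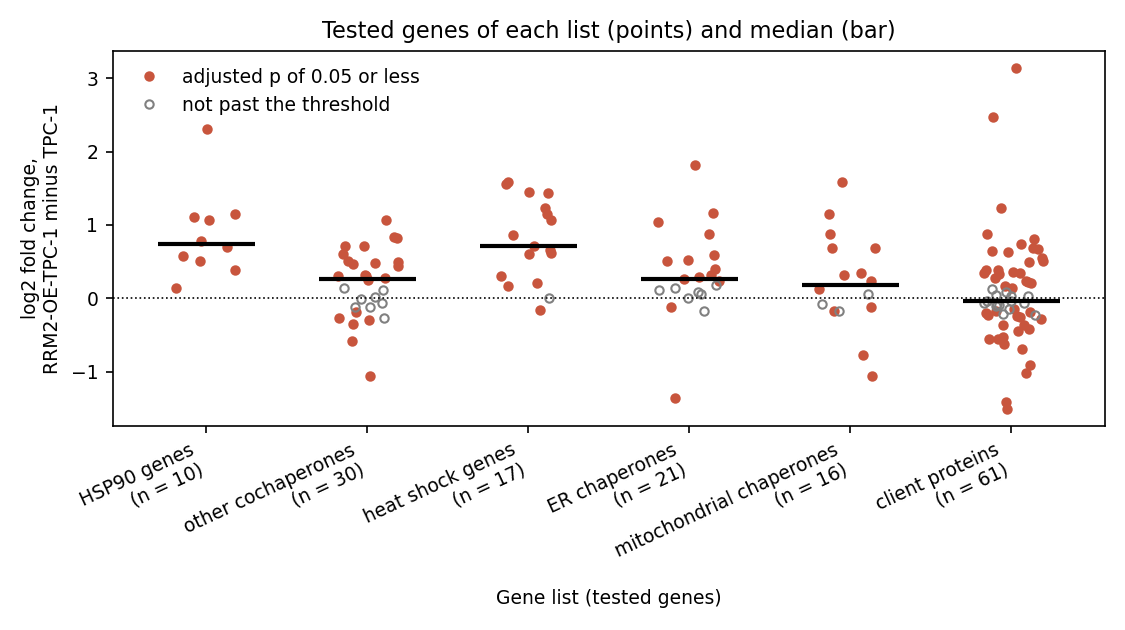
log2 fold change, *RRM2*-OE-TPC-1 minus TPC-1 (vertical axis), of the tested genes of 6 lists (horizontal axis, with the number of genes); filled points passed an adjusted p of 0.05, open points did not, and the black bar is the list's median. The medians are 0.75 for the HSP90 genes, 0.26 for other cochaperones, 0.71 for heat shock genes, 0.26 for ER chaperones, 0.18 for mitochondrial chaperones and −0.03 for client proteins, beside 0.01 for all tested genes (dotted line).

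The ER and mitochondrial lists hold the neighbours of *HSP90B1* and *TRAP1*. Of 21 ER chaperone genes, 12 rose, 2 fell and 7 did not pass, beside the 34.9% higher and 32.7% lower over all tested genes, and the median log2 fold change was 0.26. *SDF2L1*, a partner of the HSP70 of the ER, rose from 8.10 ± 1.23 to 28.5 ± 0.972 FPKM (log2 fold change 1.81, adjusted p = 1.60e-06). *CALR*, the lectin chaperone calreticulin, rose from 162 to 362 FPKM (log2 fold change 1.16, adjusted p = 9.74e-08), and *CRELD2* rose from 3.16 to 6.58 FPKM (log2 fold change 1.04, adjusted p = 4.51e-04). *HERPUD1*, a component of ER-associated degradation, fell from 51.7 ± 0.543 to 20.2 ± 0.258 FPKM (log2 fold change −1.35, adjusted p = 3.09e-08). *HSPA5* (BiP), the HSP70 that works beside GRP94, was at 342, 322 and 331 FPKM in TPC-1 and 316, 292 and 305 FPKM in *RRM2*-OE-TPC-1. The groups were close, with a log2 fold change of −0.12 (SE 0.0435, adjusted p = 0.0357), and the call was lost, with adjusted p up to 0.141, when TPC-1 replicate 1 or 3 or *RRM2*-OE-TPC-1 replicate 2 or 3 was left out, and with no filter. The means of *HSP90B1* and *HSPA5* thus differed in opposite directions, that of *HSPA5* by little and with a call that did not hold throughout. What lay behind this was not tested.

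Of 16 mitochondrial chaperone and protease genes, 9 rose, 4 fell and 3 did not pass, where 34.9% and 32.7% of all tested genes were called higher and lower, and the median log2 fold change was 0.18. Beside *HSPE1* and *HSPD1*, which are also among the heat shock genes, *PPIF* (cyclophilin D, a known partner of TRAP1) rose from 34.9 ± 2.87 to 64.1 ± 6.23 FPKM (adjusted p = 2.81e-05). *GRPEL2*, a nucleotide exchange factor, fell from 16.6 to 7.93 FPKM (adjusted p = 1.28e-06), and the protease *LONP1* fell from 44.9 to 26.2 FPKM (adjusted p = 7.47e-06). *CLPX* fell from 11.5 to 10.2 FPKM (adjusted p = 0.0221), a call that was lost when TPC-1 replicate 1 or 3 or *RRM2*-OE-TPC-1 replicate 3 was left out, and with no filter (adjusted p up to 0.0786).

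Of 73 listed HSP90 client proteins, the genes of 61 were tested, of which 25 rose, 21 fell and 15 did not pass, with a median log2 fold change of −0.03. The share that rose, 41.0%, was near the 34.9% of all tested genes, of which 32.7% were called lower, so the counts are no result about clients. Among the 50 tested client kinases 21 rose and 15 fell, and among the 11 other clients, mainly steroid receptors and transcription factors, 4 rose and 6 fell. *NLRP3*, an inflammasome sensor, rose from 0.613 ± 0.0967 to 6.15 ± 0.218 FPKM, a log2 fold change of 3.14 (adjusted p = 2.69e-07) that was 2.15 with a pseudocount of 1. *CDK6* rose by 1.23 (adjusted p = 1.60e-06) and *FGFR3* by 0.87 (adjusted p = 9.20e-05). The transcriptional repressor *BCL6* fell by 1.50 on the log2 scale (adjusted p = 7.42e-07), the kinase *FYN* fell by 1.41 (adjusted p = 7.65e-06) and the insulin receptor *INSR* fell by 1.01 (adjusted p = 1.66e-05). *RET*, the receptor kinase rearranged in part of papillary thyroid carcinomas, was at 7.63, 7.46 and 8.18 FPKM in TPC-1 and 7.86, 7.67 and 7.25 FPKM in *RRM2*-OE-TPC-1, with overlapping groups (adjusted p = 0.650).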

How the data were processed

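RNA of 3 TPC-1 and 3 *RRM2*-OE-TPC-1 libraries was sequenced. The authors deposited FPKM per gene; the submitters' processing notes name HISAT2 2.0.5, featureCounts 1.5.0, DESeq2 1.20.0 and GRCh38.p14. The labels give ribosomal RNA removal and RNase R digestion, the methods poly(A) selection. Which was done is not settled, and how far the FPKM reflect plain mRNA levels was not tested. Gene models were those of GENCODE 29. The strand setting is not given in the sources used here. All values were whole multiples of 1 read in their library (to within 6.89e-06 reads), so reads were recovered. Replicate pairs differed by more than counting noise (chi-square per degree of freedom 1.81 to 5.68). The pairs with *RRM2*-OE-TPC-1 replicate 1 had the highest values, 5.02 and 5.68. Replicates 2 and 3 of that group were at 1.81 and the TPC-1 pairs at 2.92 to 3.08. *RRM2*-OE-TPC-1 replicate 1 also had the fewest reads on genes (14317091) and the lowest mitochondrial share (4.29%).

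Tested genes had 0.5 FPKM or more and 10 or more reads, each in at least 3 libraries. The fit was made with limma 3.58.1 in R 4.3.3 on log2(FPKM + 0.1), with Benjamini-Hochberg adjustment across all tested genes. The procedure was run on simulated data in which far fewer genes changed than were called here. That run cannot speak for the calls made in these data. Fold changes refer to log2(FPKM + 0.1) and are understated for low genes. The methods describe biological triplicates, and no label names separate cultures, so p-values measure only the spread between these libraries. Python 3.11.15 with numpy 2.4.6, pandas 2.3.3 and matplotlib 3.10.9 was used for the rest. Promoter windows were those of RefSeq.

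Genes of the HSP90 set and the hand-written lists were chosen with earlier results of these data known, and list counts are no independent evidence. Named genes are the HSP90 set, the 3 largest called changes in each direction of each list (mean FPKM of at least 1), and genes fixed by name. *HSPB1*, *HSF4*, *PTGES3L*, *PAX8*, *FOXE1*, *HHEX* and the marker genes at or near 0 were named after their values were seen. Alternatives were 2 other pseudocounts, no filter, other scalings, voom on recovered reads, a replicate block, protein-coding genes only and each library left out in turn. Some marker genes of the lists are not reported here.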

Additional observations from a re-analysis of the deposited data

How the results depend on the processing

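Heat shock genes called higher stayed at 15 under every alternative tried for that count. Scaling to library totals moved the log2 fold change of 6 HSP90 genes by more than the spread between replicates, to 2.25 for *HSP90AA1* and 0.09 for *HSF1*, with no change of sign. The same scaling called 4259 genes higher and 4977 lower, where 4758 and 4449 were called otherwise, and turned the split of client proteins from 25 higher and 21 lower to 24 and 26. With no filter on low values, heat shock genes called lower went from 1 to 0 and ER chaperones called lower from 2 to 1, as *HSPB8* and *HSPA5* lost their calls. Leaving out single libraries gave 0 to 1 and 1 to 2 for these counts. The difference in the *HSP90AA1* share was 19.3 percentage points by FPKM, 18.9 to 19.5 with a library left out, 22.4 in reads and 21.4 by principal transcript length, the last chosen after seeing the data.

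Libraries with the same replicate number in their titles showed no shared deviation. Their deviations from the group means correlated at −0.0105, −0.006 and −0.055, and those of differently numbered libraries at −0.0481 to 0.0614. Whether the cultures were paired cannot be told from this. With the replicate number as a block, 4616 genes were called higher and 4318 lower. The counts of the cochaperone, heat shock, ER, mitochondrial and client protein lists were the same. A two-sided exact permutation test of 1 gene could not go below a p of 0.10 with these group sizes.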

Other observations

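Motif matches could be set beside the fold changes of genes outside the HSP90 set. Of the tested genes with a RefSeq window, 45 others held an HSE of 3 units, of which 22 were called higher and 12 lower, with a median log2 fold change of 0.13. Among 1271 with an HSE of 2 units, 487 were called higher and 443 lower (median 0.02). Among 15 with an ERSE, 6 were called higher and 5 lower (median 0.15). Over all 13621 tested genes, of which 9521 were matched to a window, 34.9% were called higher and the median was 0.01. With the 11451 tested protein-coding genes fitted alone, 4533 were called higher and 3933 lower, and the median was 0.0351. The share among all genes with a window was not computed, so no excess is read from these counts. Of the 17 heat shock genes with a window, *CHORDC1*, *DNAJA1*, *HSPA8*, *HSPD1* and *SERPINH1* held an HSE of 3 units.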
